A study of Mus musculus with 8 samples.

Results

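The genes described here are 35 mouse genes of mitophagy and autophagy, out of 41388 genes in the deposited tables. They were chosen by name: 10 cargo receptors that tie mitochondria or other cargo to the forming autophagosome, 22 genes of the core autophagy machinery, the mitophagy kinase Pink1, its opponent Usp30 and the lipid transfer gene Vps13c. Their Ensembl identifiers were matched to symbols with the GENCODE M21 annotation of the build GRCm38, in which each of the 35 had 1 identifier, and all 35 had enough counts to be tested.

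Macrophages were taken from the epididymal fat (eWAT), a visceral white adipose depot, of 4 male MitoFat mice fed normal chow. MitoFat is given in the labels as the strain, and it carries a mitochondrial reporter that is specific to adipocytes; the promoter that drives it, the strain background and the age of the mice are not stated in these labels. Live cells with surface CD45, F4/80 and CD64 were sorted from the collagenase-digested stromal vascular fraction into a reporter-positive population (mtD2+) and a reporter-negative one (mtD2-), so each mouse gave 1 library of each kind, 8 in all. The question was how macrophages differ in the animal according to whether they received mitochondria of adipocytes. Both populations therefore share the strain, the diet, the depot and the digestion, and an mtD2+ cell is a macrophage carrying signal from the mitochondria of another cell type.

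Autophagy encloses cytoplasm in a double membrane, the autophagosome, which fuses with lysosomes for degradation, and mitophagy is the form that takes mitochondria as cargo. In the ubiquitin route the kinase PINK1 gathers on damaged mitochondria and phosphorylates ubiquitin on their surface, which soluble receptors such as optineurin and p62 bind. In the other route receptors anchored in the outer mitochondrial membrane, such as FUNDC1, BNIP3 and NIX, bind the ATG8 proteins of the growing membrane directly. Macrophages also use much of this machinery to handle engulfed material and microbes.

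Of the 35 genes, 2 rose in mtD2+ macrophages and 1 fell. Optn, the gene of the soluble receptor optineurin, rose 3.34-fold, and Atg2a, the gene of a lipid transfer protein of the growing autophagosome, rose 2.48-fold. Fundc1, the gene of a receptor in the outer mitochondrial membrane, fell by 0.55 on the log2 scale. The other 32 genes did not pass the test. The threshold was an adjusted p under 0.05 (Benjamini-Hochberg over 13933 tested genes) in edgeR's quasi-likelihood test of the counts with the mouse as a block, and every adjusted p below comes from that test. Of all tested genes, 5.5% were called in either direction, 3.72% as higher and 1.78% as lower, so the number of calls among the 35 was near that of genes in general. Log2 fold changes are mtD2+ over mtD2-, with the standard error (SE) of the fit.

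Stretches of the promoters of Optn and Atg2a are shown because they are the 2 genes that rose. They are from RefSeq (GRCm38.p6), run 5′ to 3′ on the strand of the gene and hold the 150 bases before the annotated start. The Optn stretch is chr2:5064118-5064267 on the minus strand and the Atg2a stretch is chr19:6241518-6241667 on the plus strand. The RefSeq start of Optn, at 5064117, lies upstream of the counted gene, which begins at 5064051, and distances below are from the RefSeq start. Capitals mark matches to GGGCGTGG, a GC-rich box, and to CCAAT, on either strand.
Optn: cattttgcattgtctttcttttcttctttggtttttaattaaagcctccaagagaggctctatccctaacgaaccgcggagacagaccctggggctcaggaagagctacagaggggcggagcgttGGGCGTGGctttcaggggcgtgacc
Atg2a: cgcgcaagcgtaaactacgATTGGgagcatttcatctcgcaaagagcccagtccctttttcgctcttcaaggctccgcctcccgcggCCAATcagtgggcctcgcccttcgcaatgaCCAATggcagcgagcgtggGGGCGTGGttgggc
The GC-rich box was picked after these letters were read. It began 25 bases before the start of Optn and 14 bases before that of Atg2a, and Optn had another match 4 bases after its start. Among the 32851 RefSeq windows of 300 bases (250 before to 50 after a start), 5.33% held GGGCGTGG. RefSeq windows were found for 27 of the 35 genes, and Wipi1 was the other gene among them that held the box. CCAAT was in 37.4% of all windows and in those of 7 of the 27 genes.

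Of 5 further motifs searched on both strands of the same windows, the E-box core CACGTG, which the autophagy and lysosome regulator TFEB is known to bind, was in the windows of Atg3, Atg5, Atg7, Atg14 and Bnip3 and in 7.15% of all windows. The heat shock core GAANNTTC, present in 7.86% of all windows, was found for Optn alone, 17 bases after its start. The antioxidant response core TGACNNNGC was in those of Atg13, Bcl2l13, Map1lc3b and Tax1bp1 and in 12.4% of all windows. The core of the interferon-stimulated response element was found for Nbr1, with 3.44% over all windows. The AP-1 site TGANTCA was in none of the 27 genes' windows and in 7.81% of all. These matches describe letters in a window and are no evidence of binding. The median GC content was 60.0% over the 27 genes' windows and 52.7% over all windows. Motif shares were not adjusted for GC content.

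Library totals were 18462287 to 27464399 counts. On the first principal component the mtD2- library of mouse 4 stood at -81.1, apart from the range of -28.4 to 60.5 of the other 7. On the second, mtD2- of mouse 3 stood at 78.4, against -53.3 to 27.6 for the other 7. Values that leaving out one of these mice ends, turns or moves far are given without it as well. The macrophage markers summed to 13130 to 14750 CPM (counts scaled to library size, here with edgeR's TMM factors) in mtD2+ libraries and 13670 to 15690 CPM in mtD2- libraries. Of these 10 markers 1 was higher and 1 lower in mtD2+ macrophages, and 5 values were positive and 5 negative. The higher one was Mertk (log2 0.51, SE 0.11, adjusted p = 0.0341). The lower one was the sort marker Adgre1, which encodes F4/80 (log2 -0.55, SE 0.12, adjusted p = 0.0336). Of the other sort markers, Fcgr1, which encodes CD64, was at -0.44 (adjusted p = 0.0554) and Ptprc, which encodes CD45, at 0.02 (adjusted p = 0.938). Without any 1 mouse the adjusted p of Mertk was 0.0688 to 0.146. That of Adgre1 was 0.0373 to 0.165 and passed only without mouse 2. Of 10 fibroblast and adipocyte precursor markers, 7 were lower in mtD2+ macrophages, with sums of 613.1 to 908.3 CPM against 1802 to 4603 CPM, the highest in mtD2- of mouse 4. The test called 5 of them without mouse 1 or mouse 3, 7 without mouse 2 and 6 without mouse 4. Of 24 genes known to respond to tissue dissociation, 9 were higher in mtD2+ macrophages, with sums of 27570 to 32830 CPM against 14960 to 30540 CPM. Here the test called 2 without mouse 1 or mouse 3, 5 without mouse 2 and 15 without mouse 4. Of 10 adipocyte markers none passed the test, at 342.7 to 576.8 CPM in mtD2+ libraries and 342.8 to 485.0 CPM in mtD2- libraries. DESeq2 called 3 of the 10, and 3 were higher at an unadjusted p under 0.05. Those criteria took 12.9% and 22.8% of all tested genes, in either direction. Among the other lists, B cell markers summed to 526.7 to 805.7 CPM against 742.4 to 822.0 CPM with 1 of 5 lower, dendritic cell markers to 173.8 to 215.0 CPM against 129.7 to 212.2 CPM, neutrophil markers to 70.8 to 99.98 CPM against 57.03 to 79.16 CPM, endothelial markers to 8.77 to 31.95 CPM against 8.957 to 15.58 CPM, T and NK cell markers to 1.049 to 4.074 CPM against 1.347 to 6.56 CPM and mast cell markers to 0.7973 to 10.17 CPM against 0 to 3.49 CPM. The B cell call held without mouse 4 and was lost without mouse 1, 2 or 3. The neutrophil gene Ly6g and the mast cell gene Fcer1a had no count in any of the 8 libraries. In bulk libraries such as these, fewer cells of a type and less RNA per cell cannot be told apart.

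**Figure D1:**
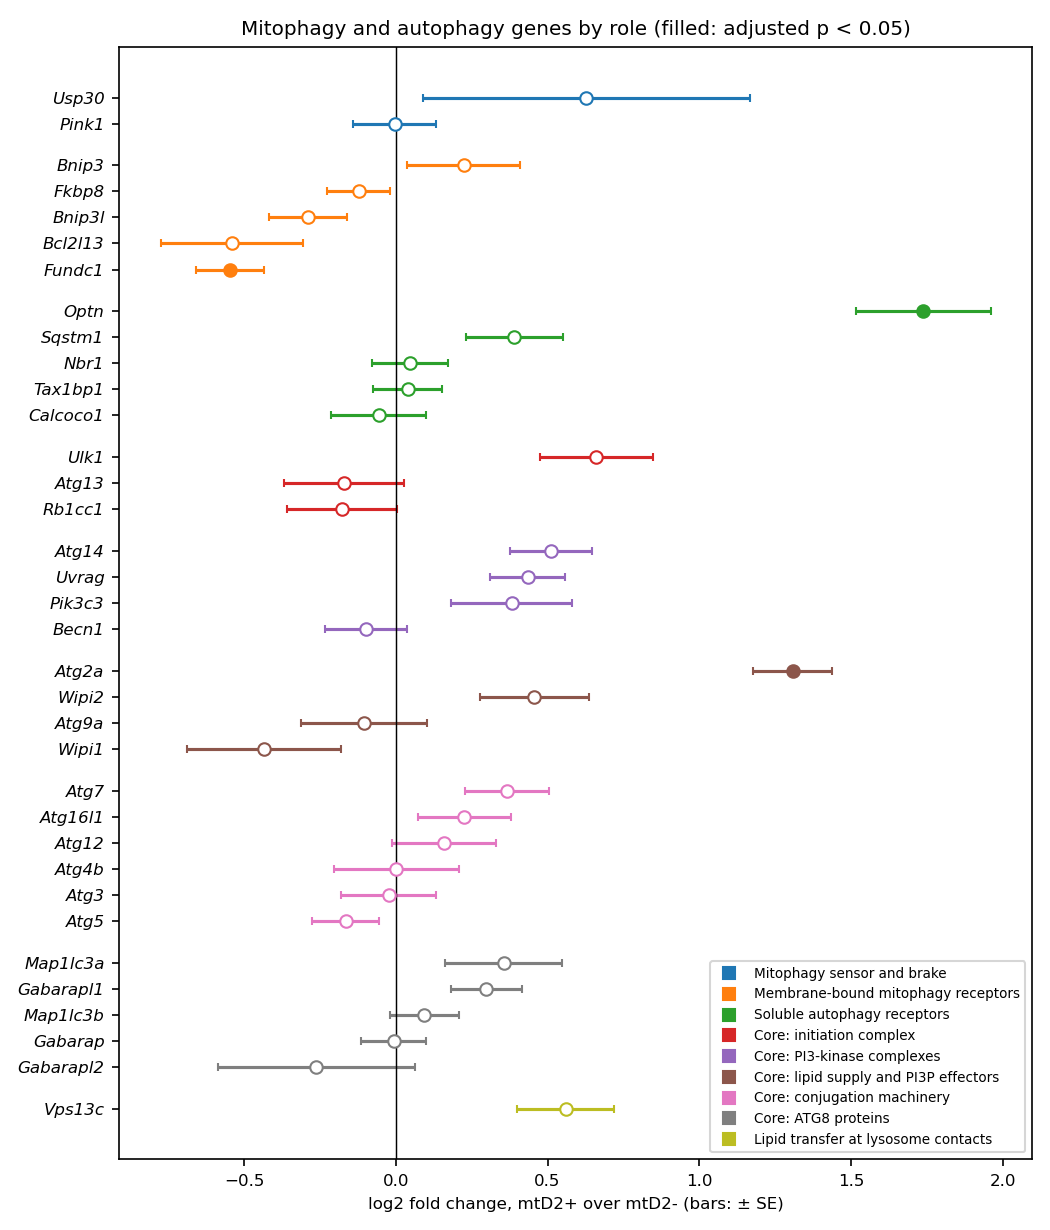
Log2 fold change of mtD2+ over mtD2- (x axis) with bars of ± SE for each of the 35 genes (y axis), coloured by role; filled points had an adjusted p under 0.05 in edgeR's quasi-likelihood test of 4 pairs. Optn at 1.74 and Atg2a at 1.31 stand to the right of all others, and Fundc1 at -0.55 is the filled point on the left.

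The sensor of the ubiquitin route had nearly the same mean level in both populations. Pink1 had 48.0 ± 7.7 CPM in mtD2+ and 47.9 ± 5.1 CPM in mtD2- macrophages (SD, n = 4 each), a fitted log2 difference of -0.0039 (SE 0.14, adjusted p = 0.99) whose 95% interval ran from -0.31 to 0.31. In 2 mice it was higher in mtD2+ and in the other 2 lower. Usp30, a deubiquitinase of the outer mitochondrial membrane that opposes mitophagy, had the lowest length-scaled level of the 35 genes, with a mean of 1.82 in the deposited RPKM (library-scaled counts per kilobase of gene length) over the 8 libraries. Its level was 6.80 ± 0.93 CPM in mtD2+ and 5.603 ± 3.869 CPM in mtD2- macrophages, and the wide spread in mtD2- came from 0.93 CPM in mouse 3 and 9.24 CPM in mouse 1. The fitted difference of 0.63 had an SE of 0.54, and its interval of -0.60 to 1.85 left both directions possible. Without mouse 3 the difference was 0.02 (SE 0.37).

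Receptors anchored in the outer mitochondrial membrane had lower summed levels in mtD2+ macrophages, and 1 of the 5, Fundc1, passed the test. Summed over the 5 genes, their levels were 211.9, 233.1, 209.2 and 204.9 CPM in mtD2+ libraries of mice 1 to 4 and 251.4, 278.5, 259.2 and 243.0 CPM in mtD2- libraries. With Fundc1 included, every mtD2+ sum was under every mtD2- sum. The mean sums were 214.8 and 258.0 CPM, of which Fundc1 alone made up 48.3 and 70.4 CPM. The median log2 fold change of the 5 was -0.29, beside -0.0006 over all tested genes.

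Fundc1, a receptor known from its role in mitophagy at low oxygen (chromosome X, 17556564 to 17572325, minus strand), had 45.1, 56.2, 44.7 and 47.0 CPM in mtD2+ macrophages of mice 1 to 4 and 68.9, 77.3, 65.0 and 70.2 CPM in mtD2- macrophages. All 4 mtD2+ libraries lay under all 4 mtD2- libraries, as in 12.6% of all tested genes in either direction, and each group stayed within a narrow range. The group means were 48.3 ± 5.4 CPM and 70.4 ± 5.1 CPM, a log2 difference of -0.55 (SE 0.11, adjusted p = 0.0271 by edgeR's quasi-likelihood test). Without any 1 of the mice the difference was -0.58 to -0.53, and the adjusted p of 0.0621 to 0.135 no longer passed; without the mouse block it was 0.0612. Fibroblast marker sums moved the same way, and their part in the Fundc1 difference was not tested.

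Bnip3l, which encodes NIX, the receptor that clears mitochondria from maturing red cells, had 35.9, 40.8, 42.5 and 34.3 CPM in mtD2+ and 50.1, 50.1, 48.4 and 39.1 CPM in mtD2- macrophages. It was lower in mtD2+ in each mouse, but mtD2- of mouse 4 lay within the mtD2+ range. The difference of -0.29 (SE 0.13) did not pass (adjusted p = 0.219). Its transcript shares 20.3% of its length with the copy Bnip3l-ps, so its counts may be split between the loci. Bcl2l13, an outer membrane protein that can stand in for the yeast receptor Atg32, had 11.8, 13.6, 10.8 and 14.6 CPM in mtD2+ and 17.9, 14.4, 25.3 and 17.5 CPM in mtD2- macrophages. Here too mtD2+ was lower in all 4 mice with 1 overlap, from mouse 4 in mtD2+ over mouse 2 in mtD2-, and the difference of -0.54 (SE 0.23) had an adjusted p of 0.214. Bcl2l13 shares 628 exonic bases with Bid on the opposite strand, which was itself at -0.66 (adjusted p = 0.0645). The strand setting of the counting is not given in the sources at hand, so reads from that shared stretch cannot be told apart. Without mouse 3, whose mtD2- library had the highest level, the Bcl2l13 difference was -0.30 (adjusted p = 0.543).

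Fkbp8, which binds LC3 and leaves mitochondria during mitophagy, had 99.0 ± 6.1 CPM in mtD2+ and 107.8 ± 8.4 CPM in mtD2- macrophages (log2 -0.12, SE 0.10, adjusted p = 0.529). It shares 224 exonic bases with Kxd1 on the opposite strand, which was at -0.38 (adjusted p = 0.0793). Bnip3, the hypoxia-inducible relative of NIX, was the one anchored receptor with a positive value, at 16.4 ± 1.4 CPM in mtD2+ and 14.1 ± 2.3 CPM in mtD2- macrophages (log2 0.22, SE 0.19, adjusted p = 0.518), although it was higher in mtD2+ in all 4 mice. About 32% of its transcript matches each of 3 pseudogenes, which makes its counts uncertain. On the length-scaled RPKM, Fundc1 made up 33.4 ± 1.9% of the 5 anchored receptors' sum in mtD2+ libraries and 40.0 ± 2.0% in mtD2- libraries, with ranges of 31.6 to 35.6% and 37.5 to 42.2%. Fkbp8 made up 35.6 ± 1.6% in mtD2+ and 31.8 ± 0.9% in mtD2- libraries and Bnip3 11.8 ± 1.0% and 8.30 ± 0.94%, so the most abundant anchored receptor was Fkbp8 in 3 mtD2+ libraries and Fundc1 in all 4 mtD2- libraries.

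**Figure D2:**
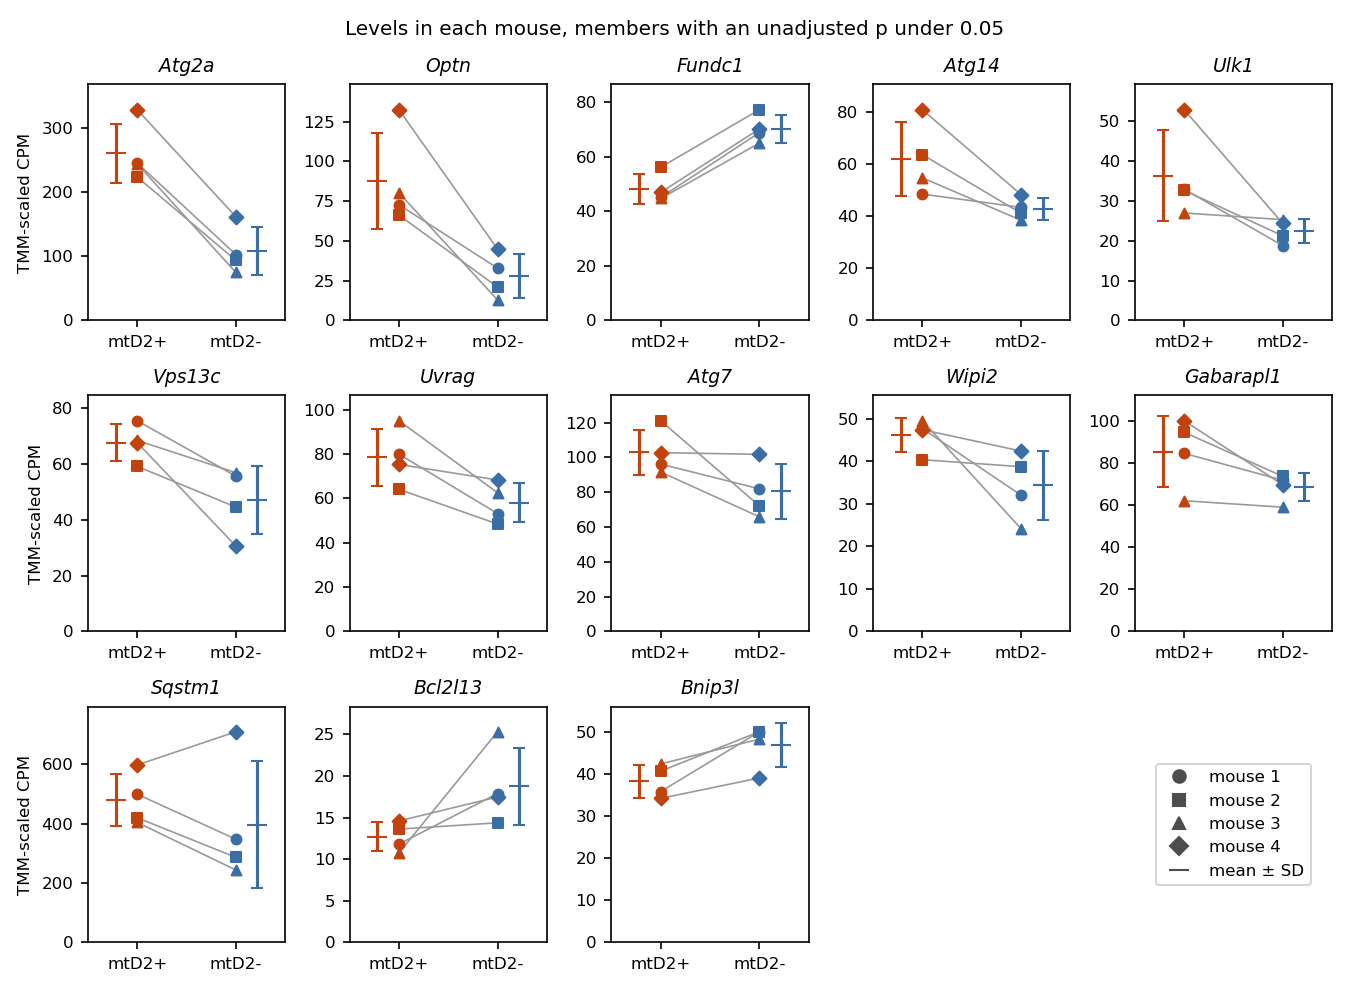
TMM-scaled CPM (y axis, from 0) of the 13 genes with an unadjusted p under 0.05, mtD2+ at left and mtD2- at right in each panel; symbols are the 4 mice, lines join the 2 libraries of a mouse and bars give the mean ± SD of 4. The lines of Optn and Atg2a fall steeply towards mtD2-, those of Fundc1 climb to it, and Sqstm1 shows 1 line, that of mouse 4, against the other 3.

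Among the 5 soluble receptors, Optn rose and the other 4 did not pass the test. Optineurin binds ubiquitin chains on mitochondria and microbes and is phosphorylated by the kinase TBK1. Optn (chromosome 2, 5020642 to 5064051, minus strand) had 72.8, 66.3, 80.3 and 132.5 CPM in mtD2+ macrophages of mice 1 to 4 and 32.9, 21.0, 12.9 and 44.9 CPM in mtD2- macrophages. The lowest mtD2+ library was above the highest mtD2- library, and in both groups mouse 4 was highest. Mean levels were 87.9 ± 30.2 CPM and 27.9 ± 14.0 CPM, a log2 ratio of 1.74 in the fit (SE 0.22, 95% interval 1.24 to 2.24, adjusted p = 0.00481 by edgeR's quasi-likelihood test). Within the mice the log2 ratios were 1.14, 1.65, 2.63 and 1.56. The call held without any 1 mouse, at 1.46 to 1.94 with adjusted p-values of 0.0128 to 0.0344, and without the block (1.66, adjusted p = 0.0372).

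The antisense gene 4930551O13Rik shares 73 exonic bases with Optn, and its own mean was 4.53 CPM in mtD2+ and 1.14 CPM in mtD2- macrophages (log2 2.01, SE 0.44, adjusted p = 0.0358). Sums of dissociation-responsive genes were also higher in mtD2+ in each mouse, and their part in the Optn and Atg2a differences was not tested. In the deposited RPKM, Optn held 8.98, 8.94, 11.1 and 13.7% of the soluble receptors' sum in mtD2+ libraries and 5.40, 4.09, 2.60 and 4.43% in mtD2- libraries. These shares did not overlap between the groups, with mouse 3 furthest apart in its ratio.

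Sqstm1, which encodes the ubiquitin-binding receptor p62 and is itself induced by oxidative stress (chromosome 11, 50199366 to 50210827), had 499.6, 420.2, 404.5 and 598.2 CPM in mtD2+ and 347.9, 286.8, 244.2 and 710.0 CPM in mtD2- macrophages. Mice 1 to 3 had more in mtD2+, and mouse 4 had more in mtD2-, the library that stood apart. Over all 4 mice the log2 fold change was 0.39 (SE 0.16, adjusted p = 0.192), and without mouse 4 it was 0.60 with an adjusted p of 0.0218. Sqstm1 shares 580 exonic bases with Mrnip on the opposite strand, a gene at 4.09 CPM in mtD2+ and 4.58 CPM in mtD2- macrophages. The sum of dissociation-responsive genes was likewise highest among mtD2- libraries in mouse 4, at 30540 CPM against at most 20510 CPM in the other 3. Its part in the Sqstm1 level was not tested.

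The remaining soluble receptors had fold changes near 0. Tax1bp1, a ubiquitin-binding receptor that also curbs inflammatory signalling, had 146.3 ± 8.5 CPM in mtD2+ and 143.7 ± 23.6 CPM in mtD2- macrophages (log2 0.04, SE 0.12). Nbr1, the receptor that clusters ubiquitinated cargo with p62, had 97.9 ± 15.6 CPM in mtD2+ and 94.3 ± 10.3 CPM in mtD2- macrophages (0.05, SE 0.13). Calcoco1, a receptor for the endoplasmic reticulum and Golgi, had 52.5 ± 5.0 CPM in mtD2+ and 55.2 ± 10.8 CPM in mtD2- macrophages (-0.06, SE 0.16). Without mouse 4 the Calcoco1 value was 0.08. Their adjusted p-values were 0.881, 0.862 and 0.869 in edgeR's quasi-likelihood test.

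**Figure D3:**
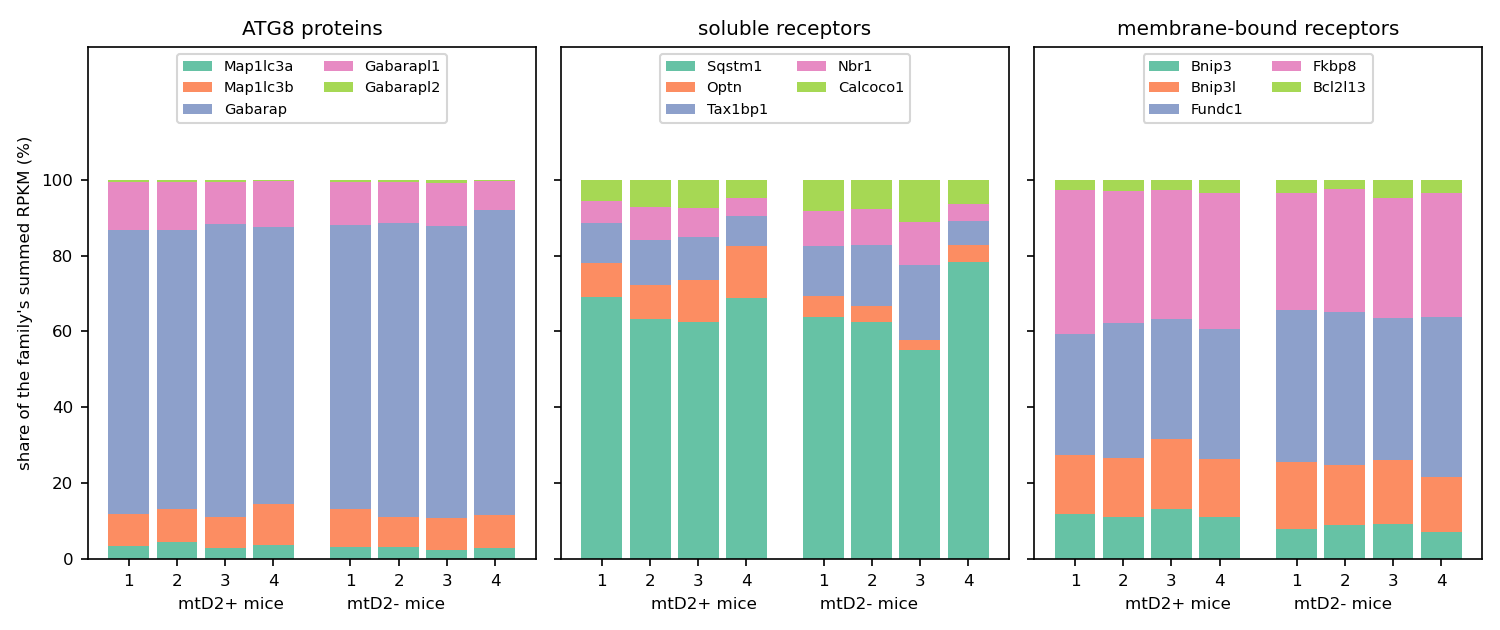
Share of each gene in the summed deposited RPKM of its family (y axis, %), for the ATG8 proteins, the soluble and the membrane-bound receptors; bars are single libraries of mice 1 to 4, mtD2+ at left and mtD2- at right. Gabarap fills 73.0 to 80.3% of the ATG8 sum in every library, while the Optn band is 8.94 to 13.7% in mtD2+ and 2.60 to 5.40% in mtD2- libraries.

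In the initiation complex no gene passed edgeR's test, while 1, Ulk1, did so at an unadjusted p under 0.05 and by DESeq2. Those 2 criteria took 22.8% and 12.9% of all tested genes, in either direction. Ulk1, the kinase that starts autophagosome formation, had 33.0, 32.6, 27.0 and 52.9 CPM in mtD2+ and 18.8, 21.2, 25.3 and 24.4 CPM in mtD2- macrophages. The groups did not overlap, with mouse 3 nearly equal and mouse 4 furthest apart, and the log2 difference was 0.66 (SE 0.19, adjusted p = 0.0783). Its scaffold Rb1cc1 (FIP200) had 42.0 ± 4.8 CPM in mtD2+ and 48.8 ± 13.8 CPM in mtD2- macrophages (-0.18, SE 0.18, adjusted p = 0.606). The adaptor Atg13 had 17.1 ± 4.0 CPM in mtD2+ and 19.0 ± 3.2 CPM in mtD2- macrophages (-0.17, SE 0.20, adjusted p = 0.658). Both were lower in mtD2+ in mice 1 to 3 and higher in mouse 4, without which they were at -0.40 (adjusted p = 0.159) and -0.33 (adjusted p = 0.414).

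Genes of the PI3-kinase complexes, which make the lipid PI3P at the site of assembly, had higher summed levels in mtD2+ macrophages, although none of the 4 passed edgeR's test alone. At an unadjusted p under 0.05, and by DESeq2, 2 of them were higher, Atg14 and Uvrag. Of all tested genes, 22.8% had such a p and DESeq2 called 12.9%, in either direction. The sums were 223.1, 212.9, 212.8 and 234.1 CPM in mtD2+ and 183.5, 178.1, 162.4 and 179.5 CPM in mtD2- libraries. These sums did not overlap, but of the 4 genes by themselves only Atg14 had groups without overlap. Atg14, the subunit that sends the kinase to autophagosome sites, had 48.4, 63.5, 54.7 and 80.7 CPM in mtD2+ and 43.3, 41.1, 38.4 and 48.2 CPM in mtD2- macrophages. The mtD2+ value of mouse 1 was only just above the mtD2- value of mouse 4, and the difference was 0.51 (SE 0.14, adjusted p = 0.0654). Uvrag, the subunit of the complex that acts in endosome and autophagosome maturation, had 80.0, 64.1, 95.01 and 75.3 CPM in mtD2+ and 53.2, 48.4, 62.6 and 68.3 CPM in mtD2- macrophages. It was higher in mtD2+ in all 4 mice, by least in mouse 4, with some overlap between the groups (0.43, SE 0.12, adjusted p = 0.0795). Stretches of Uvrag, up to 6.69% of the transcript each, match other genes at 95% identity or more.

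Pik3c3, the catalytic subunit VPS34, had 39.4 ± 8.5 CPM in mtD2+ and 31.0 ± 10.3 CPM in mtD2- macrophages (0.38, SE 0.20, adjusted p = 0.296), with the lowest level, 17.8 CPM, in mtD2- of mouse 4. Without that mouse the difference was 0.13 (SE 0.15, adjusted p = 0.666). Becn1, which encodes the scaffold Beclin 1, had 40.9 ± 5.5 CPM in mtD2+ and 44.0 ± 7.2 CPM in mtD2- macrophages (-0.10, SE 0.13, adjusted p = 0.714). It was the member of the group with a negative value, and its direction differed between mice. Becn1 shares 3104 exonic bases with Cntd1 on the opposite strand, a gene with 82 counts over all 8 libraries. Reads of that stretch cannot be told apart, as the strand setting is not given.

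In the group that supplies lipid and reads PI3P, Atg2a rose and the other 3 did not pass. ATG2A bridges the endoplasmic reticulum and the growing membrane and moves lipids across. Atg2a (chromosome 19, 6241668 to 6262335, plus strand) had 245.0, 223.2, 243.8 and 327.9 CPM in mtD2+ macrophages of mice 1 to 4 and 102.6, 93.6, 74.8 and 161.5 CPM in mtD2- macrophages. All mtD2+ libraries were above all mtD2- libraries, with mouse 4 highest in both. The means of 260.0 ± 46.4 CPM and 108.1 ± 37.5 CPM gave a fitted log2 ratio of 1.31 (SE 0.13, 95% interval 1.01 to 1.60, adjusted p = 0.00221 by edgeR's quasi-likelihood test). Within the mice the log2 ratios were 1.26, 1.25, 1.70 and 1.02. Without any 1 mouse it was 1.18 to 1.40 with adjusted p-values of 0.00289 to 0.0209, and without the block 1.27 (adjusted p = 0.021).

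Wipi2, the PI3P-binding protein that recruits the ATG16L1 complex, had 47.7, 40.4, 49.6 and 47.5 CPM in mtD2+ and 32.1, 38.8, 24.2 and 42.5 CPM in mtD2- macrophages. Each mouse had more in mtD2+, mouse 2 by very little, and the difference of 0.46 (SE 0.18) had an adjusted p of 0.176, and was 0.27 (adjusted p = 0.466) without mouse 3. Its relative Wipi1 had 10.1 ± 3.2 CPM in mtD2+ and 13.7 ± 3.9 CPM in mtD2- macrophages, a value of the opposite sign (-0.43, SE 0.25, adjusted p = 0.349; -0.26 without mouse 4). Atg9a, the scramblase whose vesicles seed the membrane, had 14.4 ± 1.7 CPM in mtD2+ and 15.8 ± 4.4 CPM in mtD2- macrophages (-0.11, SE 0.21, adjusted p = 0.807; 0.05 without mouse 4), and 25.4% of its transcript matches the overlapping Gm29253.

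None of the 6 genes of the conjugation machinery, which attaches ATG8 proteins to membrane lipid, passed the test in edgeR, DESeq2 or limma voom. At an unadjusted p under 0.05, 1 was higher, beside 22.8% of all tested genes in either direction. The median log2 fold change of the 6 was 0.08. Atg7, the activating enzyme of both conjugation systems, had 96.1, 121.0, 91.6 and 102.7 CPM in mtD2+ and 81.9, 72.2, 65.8 and 101.7 CPM in mtD2- macrophages. It was higher in mtD2+ in all 4 mice, by almost nothing in mouse 4 (0.37, SE 0.14, adjusted p = 0.156). Atg5, which joins ATG12 and ATG16L1 in the complex that directs lipidation, had 59.9 ± 4.1 CPM in mtD2+ and 67.1 ± 3.2 CPM in mtD2- macrophages. Its groups did not overlap, at 54.2 to 64.0 CPM and 65.0 to 71.9 CPM, yet the difference was small (-0.17, SE 0.11, adjusted p = 0.417).

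Partners of Atg5 had values of the other sign. Atg12 had 31.5 ± 4.0 CPM in mtD2+ and 28.4 ± 5.0 CPM in mtD2- macrophages (0.16, SE 0.17, adjusted p = 0.63), and Atg16l1 had 40.5 ± 6.6 CPM in mtD2+ and 34.7 ± 6.3 CPM in mtD2- macrophages (0.23, SE 0.15, adjusted p = 0.421), or 0.15 without mouse 3 and 0.14 without mouse 4. Atg3, the enzyme that transfers ATG8 proteins to lipid, had 30.4 ± 3.0 CPM in mtD2+ and 31.2 ± 6.1 CPM in mtD2- macrophages (-0.02, SE 0.16, adjusted p = 0.946). Atg4b, the protease that primes ATG8 proteins, had 44.6 ± 5.9 CPM in mtD2+ and 45.4 ± 11.5 CPM in mtD2- macrophages (0.0016, SE 0.21, adjusted p = 0.998). Without mouse 3 the Atg4b value was -0.27. The intervals of Atg3 and Atg4b, -0.38 to 0.33 and -0.47 to 0.47, leave room for changes of moderate size either way.

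The ATG8 proteins, which coat the membrane and bind the receptors, comprised 5 genes. None passed the test in edgeR, DESeq2 or limma voom. At an unadjusted p under 0.05, 1 was higher, beside 22.8% of all tested genes in either direction. Summed levels of the 5 overlapped, at 924.7 ± 182.4 CPM in mtD2+ and 897.3 ± 212.2 CPM in mtD2- libraries. Gabarap had the highest length-scaled level of all 35 genes, with a mean RPKM of 295.7 over the 8 libraries, followed by Sqstm1 at 128.8, Gabarapl1 at 43.4 and Map1lc3b at 34.9. It made up 74.6 ± 1.8% of the ATG8 sum in mtD2+ and 77.4 ± 2.3% in mtD2- libraries. Its CPM was 543.2 ± 83.1 in mtD2+ and 554.9 ± 148.0 in mtD2- macrophages (log2 -0.0075, SE 0.11, adjusted p = 0.976).

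Gabarapl1, a close relative of Gabarap, had 84.6, 94.6, 62.1 and 100.1 CPM in mtD2+ and 71.8, 73.7, 59.0 and 69.7 CPM in mtD2- macrophages. Every mouse had more in mtD2+, but the mtD2+ library of mouse 3 lay within the mtD2- range (0.30, SE 0.12, adjusted p = 0.177). Map1lc3b, the LC3 gene most used as an autophagosome marker, had 274.3 ± 79.1 CPM in mtD2+ and 255.1 ± 61.7 CPM in mtD2- macrophages (0.09, SE 0.11, adjusted p = 0.671). It shares 58 exonic bases with Zcchc14 on the opposite strand, which was itself higher in mtD2+ (0.63, adjusted p = 0.033), and reads of that stretch cannot be told apart. Map1lc3a had 17.2 ± 5.6 CPM in mtD2+ and 13.4 ± 4.1 CPM in mtD2- macrophages (0.36, SE 0.19, adjusted p = 0.315) and was higher in mtD2+ in all 4 mice. Gabarapl2 had the lowest level of the family, at 4.56 ± 0.68 CPM in mtD2+ and 5.44 ± 0.52 CPM in mtD2- macrophages (-0.26, SE 0.33, adjusted p = 0.68, and -0.09 without mouse 3). About 21% of its transcript matches each of 3 pseudogenes, which makes its counts and its rank in the family uncertain.

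Vps13c, a bridge-like lipid transfer protein at contacts of the endoplasmic reticulum with late endosomes and lysosomes and a gene of familial Parkinson disease in humans, stands outside both groups. It had 75.6, 59.2, 68.5 and 67.7 CPM in mtD2+ and 55.7, 44.6, 57.0 and 30.7 CPM in mtD2- macrophages. The groups did not overlap, and mouse 4 had the widest gap. The log2 difference of 0.56 (SE 0.16) was 0.37 (SE 0.13, adjusted p = 0.164) without mouse 4. Over all 4 mice its adjusted p was 0.0795, near the threshold like those of Atg14, Ulk1 and Uvrag. DESeq2's Wald test called all 4 of these genes, and 12.9% of all tested genes.

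**Figure D4:**
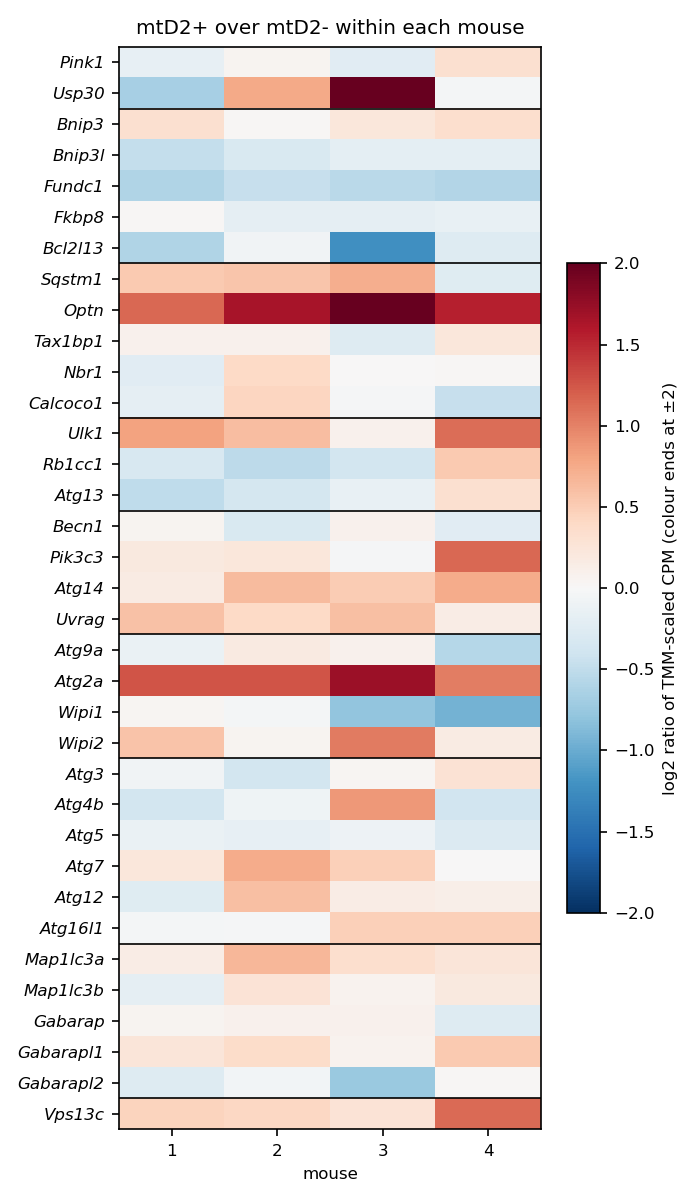
Log2 ratio of mtD2+ over mtD2- CPM within each of the 4 mice (columns) for the 35 genes (rows), in the order of their roles, with lines between role groups; red is higher in mtD2+, blue lower, and colours end at 2 either way. Optn and Atg2a are red in all 4 mice, Fundc1, Bnip3l, Bcl2l13 and Atg5 blue in all 4, and Sqstm1 is red in mice 1 to 3 and blue in mouse 4.

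Set against each other, the receptors and the core genes each had calls among a majority that did not pass. Of the 10 receptors 1 was higher and 1 lower, with a median log2 fold change of -0.0094, and 5 values were positive and 5 negative. Of the 22 core genes 1 was higher and none lower, with a median of 0.13, and 13 values were positive and 9 negative. Median receptor minus median core was -0.14 in the fit. From the log2 ratios within each mouse, the same difference of medians was -0.13, -0.08, -0.19 and -0.35 in mice 1 to 4 (mean -0.19, SD 0.12). It was negative in all 4 and furthest from 0 in mouse 4, and it is given as a description, with no test. Summed receptor levels were 1070, 1048, 998.9 and 1203 CPM in mtD2+ and 930.0, 863.7, 849.3 and 1263 CPM in mtD2- libraries, with mouse 4 again the exception. Core sums were 1776, 1901, 1646 and 2202 CPM in mtD2+ and 1589, 1591, 1318 and 1992 CPM in mtD2- libraries, higher in mtD2+ in every mouse with overlapping groups.

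The median was -0.29 for the 5 anchored receptors and 0.05 for the 5 soluble ones. The soluble median is the value of Nbr1 (SE 0.13) and lay near the -0.0006 of all tested genes. Without Optn the receptor median was -0.06, and without Atg2a the core median was 0.09. At an unadjusted p under 0.05, 10 of the 35 genes were higher and 3 lower, which is 13 in all beside 22.8% of all tested genes. Groups did not overlap for 7 of the 35, namely Optn, Atg2a, Ulk1, Atg14 and Vps13c upward and Fundc1 and Atg5 downward, beside 6.55% and 6.01% of all tested genes. In 15 of the 35 all 4 mice moved one way, beside 32.3% of all tested genes.

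Other genes of the pathway were taken from 5 lists of 56 genes, of which 54 were tested. In mtD2+ macrophages 5 of the 54 were higher and none was lower, beside 3.72% and 1.78% of all tested genes. Their median log2 fold change was 0.14. At an unadjusted p under 0.05, 15 were higher and 4 lower, beside 22.8% of all tested genes in either direction. Without the mouse block, or without mouse 3, none of the 54 passed, and DESeq2 called 7 and limma voom 6. Of all tested genes, DESeq2 called 12.9% and limma voom 7.65%.

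TBK1 and its adaptors gave 2 of these calls in 5 genes. Tbk1, the kinase that phosphorylates optineurin, p62 and other receptors, had 141.5, 129.1, 147.1 and 139.3 CPM in mtD2+ and 101.3, 95.4, 101.3 and 66.6 CPM in mtD2- macrophages. The groups were well apart, with mtD2- of mouse 4 lowest (log2 0.63, SE 0.13, adjusted p = 0.0286). Tank, an adaptor of TBK1, had 447.7, 324.3, 395.5 and 597.9 CPM in mtD2+ and 281.4, 212.7, 182.0 and 272.4 CPM in mtD2- macrophages. Again no libraries overlapped (0.88, SE 0.13, adjusted p = 0.00785). Without any 1 mouse, the Tbk1 adjusted p was 0.053 to 0.107, and that of Tank was 0.017 to 0.0597. The other 3 genes of the list had log2 values of 0.13 to 0.21 and did not pass. Tbk1 and Tank were thus called in the same direction as Optn, as were 3.72% of all tested genes. This describes shared direction in 4 mice and no link between the genes.

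Among 20 tested genes of further autophagy machinery, Tmem41b and Wdfy3 rose. Tmem41b, a lipid scramblase of the endoplasmic reticulum that acts early in autophagosome formation, had 31.6 ± 4.4 CPM in mtD2+ and 16.5 ± 5.4 CPM in mtD2- macrophages (0.97, SE 0.17, adjusted p = 0.0161). Wdfy3, which encodes the scaffold ALFY for selective autophagy of protein aggregates, had 241.6 ± 15.8 CPM in mtD2+ and 159.2 ± 27.7 CPM in mtD2- macrophages (0.61, SE 0.12, adjusted p = 0.0207). The call of Wdfy3 was lost without any 1 mouse, at adjusted p-values of 0.0502 to 0.0958, and that of Tmem41b held only without mouse 4, its range being 0.0188 to 0.0861. In the 12 genes of autophagosome fusion, Vps18, a subunit of the tethering complexes HOPS and CORVET, had 362.4 ± 122.6 CPM in mtD2+ and 199.0 ± 99.1 CPM in mtD2- macrophages (0.94, SE 0.14, adjusted p = 0.00814). Its groups overlapped because mtD2- of mouse 4 had 332.2 CPM, but each mouse had more in mtD2+.

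Further cargo receptors and mitochondrial ubiquitin enzymes gave no calls in edgeR, DESeq2 or limma voom. At an unadjusted p under 0.05, 2 of the receptors were lower, and 2 of 8 ubiquitin enzymes were higher and 1 lower. That threshold took 22.8% of all tested genes, in either direction. Of 9 tested receptors, Nipsnap2, a mitochondrial matrix protein that can mark damaged mitochondria, was at -0.33 (SE 0.12, adjusted p = 0.136) and the endoplasmic reticulum receptor Retreg1 at -0.36 (SE 0.14, adjusted p = 0.156), and both were lower in mtD2+ in all 4 mice. Calcoco2 had no count in any library and was not tested. Usp8, a deubiquitinase of endosomes and mitochondria, was at -0.31 (SE 0.11, adjusted p = 0.135).

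**Figure D5:**
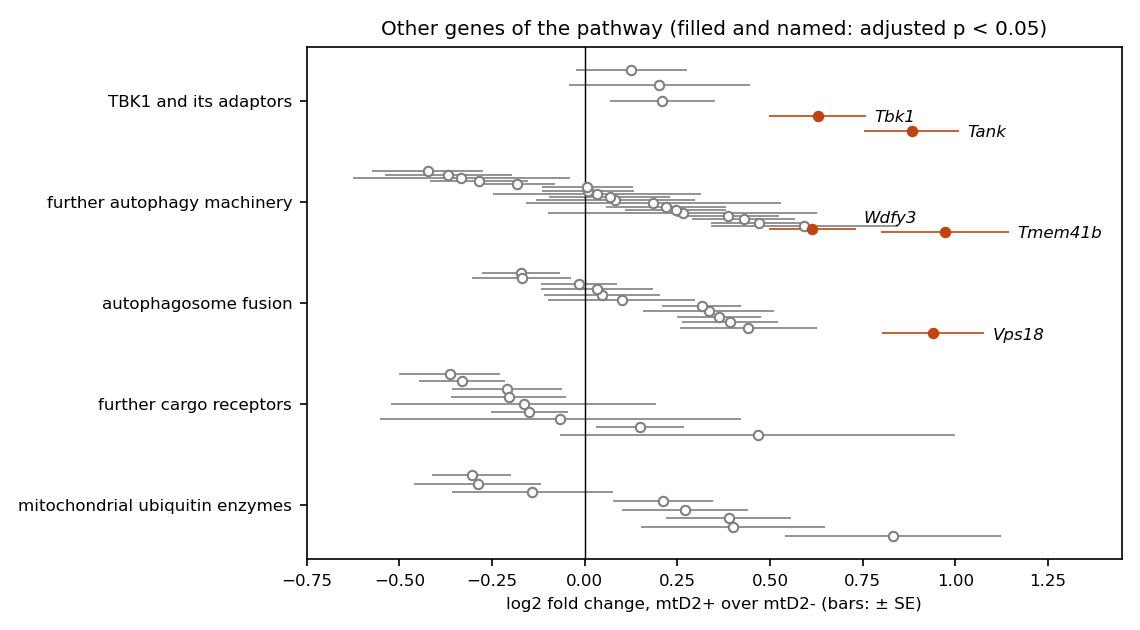
Log2 fold change of mtD2+ over mtD2- (x axis) with bars of ± SE for the 54 tested genes of 5 further pathway lists (rows); the 5 genes with an adjusted p under 0.05 are filled and named. All 5 lie between 0.61 and 0.97, in the TBK1, machinery and fusion lists, and neither the further receptors nor the ubiquitin enzymes hold a filled point.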

How the data were processed

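RNA was measured in 8 libraries, mtD2+ and mtD2- macrophages of 4 mice. Per the labels' protocols, RNA came from a micro-scale column kit and was amplified with a SMARTer Ultra-Low RNA kit. Per the submitters' processing notes, the authors used STAR 2.0.4b, Subread's featureCounts 1.45, bcl2fastq and the build GRCm38; roles, options and strand setting are not given in these sources. Per the file headers, the authors deposited whole-number counts per gene, the CPM of each library's own total, and the RPKM, which is that CPM per kilobase of gene length.

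The test was edgeR's (version 4.0.16, under R 4.3.3; quasi-likelihood, TMM, mouse block, expression filter with a minimum count of 10). The SE is the fold change over the square root of F. Printed CPM is TMM-scaled, and RPKM served only for levels between genes and family shares. SDs are over the 4 libraries of a group. DESeq2 1.42.0, limma 3.58.1 voom, a fit without the block, other scalings and filters, thinned counts and fits without each mouse were alternatives. The fit was tested on simulated data. There it called 23.4% of genes changed 1.5-fold, 66.7% at 2-fold, 62.5% at 3-fold and 87% at 4-fold, and 0.0607% of unchanged genes. Small changes can thus be missed. Each rate of changed genes rested on 46 to 48 of them, beside 13186 unchanged ones. The rates therefore need not hold for the real comparison.

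The labels name the mouse of each library in a field of its own and the design text says that the comparison was pair-wise. The deviations of a mouse's 2 libraries from the group means correlated at 0.0385, 0.0704, 0.145 and 0.251 in mice 1 to 4. Each was above the correlation of that mouse's mtD2+ library with the mtD2- library of any other mouse. The reverse, from each mtD2- library, was not compared. The libraries come from separate mice, 1 of each kind per mouse. Near-identical copies were transcripts with at least 95% identity over 100 bases.

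All 35 genes are named: those with an unadjusted p under 0.05 with every library's value, the others by mean and SD. From each further pathway list the called genes, or else the 2 of smallest p, are named; 1 gene that this rule takes is not reported here. Genes and lists were chosen with earlier results of these data known, so their counts are descriptions.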

Additional observations from a re-analysis of the deposited data

Results flagged for a closer look

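In 76 groups of 4 libraries (the 35 genes and 3 sums, in each population) the highest and the lowest library were compared with the range of their group, and chance alone would pick about 1 group in 20. A library lay far from the other 3 in 2 of them. Bnip3l had 39.14 CPM in mtD2- of mouse 4, under the 48.4 to 50.14 CPM of the other 3 mtD2- libraries and within the range of the mtD2+ libraries. Atg5 had 71.88 CPM in mtD2- of mouse 2, above the 65.05 to 65.88 CPM of the other 3.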

How the results depend on the processing

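Optn and Atg2a passed under each alternative, and Fundc1 under each except the fit without the replicate block and those without 1 mouse. Genes called among the 35 numbered 6 with a filter of at least 1 CPM in all libraries of a group and 7 with DESeq2 instead of 3, and 2 without the pairing block; without 1 mouse they numbered 2 to 3, where 3 without mouse 4 included Sqstm1 and not Fundc1. Over all genes the 767 calls became 218 without the pairing block, 1799 with DESeq2 and 166 to 555 without 1 mouse; 67.67% of calls were higher, against 53.84% with library totals in place of TMM (407 higher, 349 lower), which moved the median of all genes by -0.06. Calls in the further pathway lists numbered 0 without the block and 0 to 3 without 1 mouse, against 5. The receptor minus core median ranged from -0.24 to -0.12. Of 420 values of the 35 genes, 23 changed sign, in 8 genes whose reported value was at most 0.11 in size; 27 genes kept their direction. Without the block Pink1 was at 0.005 and Atg4b at -0.0255; with library totals Tax1bp1 was at -0.0195, Nbr1 at -0.0101 and Atg4b at -0.0555; with DESeq2 or its size factors Pink1 was at 0.0074 and Gabarap at 0.0037; with the stricter filter they were at 0.0044 and 0.0008, and in thinned counts at 0.0232 and 0.0032; with voom Atg4b was at -0.009. Without 1 mouse, values crossed 0 for Pink1 (-0.11 to 0.0763), Tax1bp1 (-0.0263 to 0.1422), Nbr1 (-0.0667 to 0.139), Calcoco1 (-0.2181 to 0.0776), Atg9a (-0.2013 to 0.046), Atg3 (-0.1291 to 0.0904), Atg4b (-0.2716 to 0.1322) and Gabarap (-0.0366 to 0.0763). The cause of these changes was not tested. Low counts limit Usp30, with 22 to 240 reads a library, and Gabarapl2, with 82 to 146.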
